A study of Mus musculus with 4 samples.

Results

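The 9 genes described here encode transcription factors that mark successive levels of the embryonic brain: Six3, Emx1, Emx2, Otx1 and Otx2 of the forebrain and midbrain, En1, En2 and Gbx2 around the isthmus, and Egr2 of the hindbrain segments called rhombomeres. They were taken by symbol from an RNA-seq table of 24771 features, of which 22036 were Ensembl genes, and all 9 had 1 row each. The genes were picked with their values in these samples already known, so their levels are given as a description, without a test. RNA-seq was run on 2 samples of PSC-derived SG placodes, labelled as induced embryonic salivary glands (iE-SGs) and collected on day 10, and on 2 samples of mouse E12.5 submandibular glands (SMGs). The placodes were grown from mouse embryonic stem cells (mESCs) of a single line, which were plated at 3000 cells per well, kept in 2% Matrigel from day 1, and were given BMP4 (2 ng/ml, day 3), RA (1 μM) with bFGF (25 ng/ml) on day 4, and FGF10 (200 ng/ml) from day 6. The labels carry the same culture text for the SMGs, and how the SMGs were dissected is not described in them. Placodes 1 and 2 and SMGs 1 and 2 below are single samples. Nothing says whether the 2 samples of a group came from separate cultures or litters, so the spread between them may be technical.

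In the neural tube, position along the head-to-tail axis is set by homeobox and zinc finger factors that repress each other across sharp borders. Otx2 holds the forebrain and midbrain side and Gbx2 the hindbrain side of the isthmus, a signalling centre at the midbrain-hindbrain border where Fgf8 and Wnt1 are expressed and where En1, En2, Pax2, Pax5 and Pax8 act. RA shifts neural tissue towards hindbrain and spinal cord fates. Several of these factors also work elsewhere: En1 marks V1 interneurons of the spinal cord, Gbx1 and Gbx2 are expressed in the spinal cord, Emx2 is needed for the urogenital system, and Egr2 drives myelination in Schwann cells.

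The PSC-derived SG placodes expressed Gbx2, Emx2, En1 and En2, and neither Otx1, Otx2, Emx1 nor Six3 reached 0.1 FPKM in any sample of either group. FPKM counts fragments per kilobase of transcript, scaled to the mapped fragments of the sample, and detected means here that each sample of a group reached 1 FPKM. By this measure 4 of the 9 genes were detected in the placodes and 0 in the SMGs, where 8 of the 9 were below 0.1 FPKM in both samples. Over all 24771 features, 50.1% were detected in the placodes and 50.5% in the SMGs, and 1.05% were detected in the placodes while lying below 0.1 FPKM in each SMG sample. The samples of the groups did not overlap for 5 of the 9 genes, 4 higher and 1 lower in the placodes, against 63.7% of all features and 88.4% of those tested below. The 9 genes summed to 12.4 and 13.6 FPKM in placodes 1 and 2 and to 0.554 and 0.774 FPKM in SMGs 1 and 2. In bulk RNA, fewer cells that express a gene and less RNA per cell cannot be told apart.

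**Figure D1:**
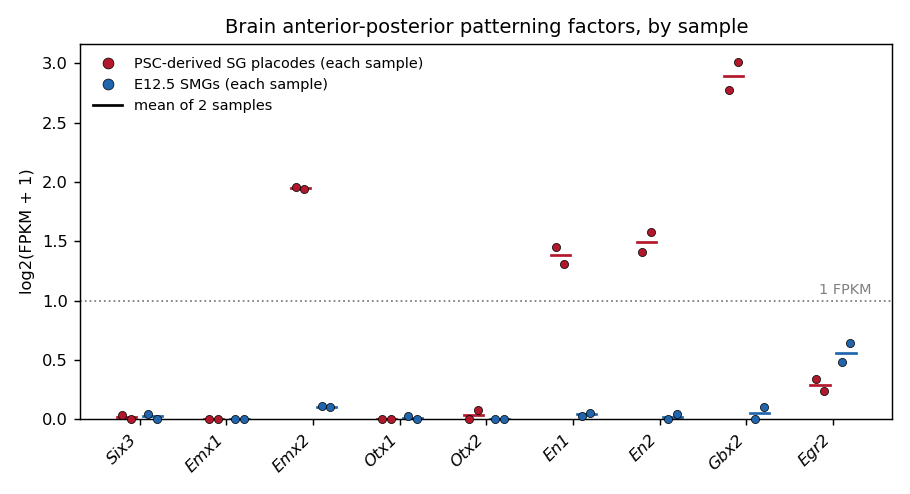
Level of each of the 9 factors as log2(FPKM + 1), ordered from forebrain to hindbrain; points are single samples, short lines are means of 2 samples, and the dotted line marks 1 FPKM. Gbx2, Emx2, En1 and En2 lie above the line in each placode sample, and every other value lies below it.

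The promoters of Gbx2 and En1, both on chromosome 1 and both detected only in the placodes among these samples, are shown with those of Otx2, which was at or near 0, and Egr2, which was higher in the SMGs. The sequences are the stretch before the RefSeq start that holds no exon of a protein-coding gene, from GRCm38.p6, and capitals mark the motifs found.
Gbx2, chr1:89931180-89931426, minus strand: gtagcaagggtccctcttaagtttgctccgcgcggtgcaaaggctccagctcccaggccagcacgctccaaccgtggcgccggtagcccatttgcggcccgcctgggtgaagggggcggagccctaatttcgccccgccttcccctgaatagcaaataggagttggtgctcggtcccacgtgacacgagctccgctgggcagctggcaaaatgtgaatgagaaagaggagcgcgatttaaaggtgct
En1, chr1:120602237-120602417, plus strand: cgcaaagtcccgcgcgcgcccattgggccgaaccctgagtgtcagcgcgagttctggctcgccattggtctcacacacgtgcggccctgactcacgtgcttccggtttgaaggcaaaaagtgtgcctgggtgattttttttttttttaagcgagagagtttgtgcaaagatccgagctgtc
Otx2, chr14:48667645-48667894, minus strand: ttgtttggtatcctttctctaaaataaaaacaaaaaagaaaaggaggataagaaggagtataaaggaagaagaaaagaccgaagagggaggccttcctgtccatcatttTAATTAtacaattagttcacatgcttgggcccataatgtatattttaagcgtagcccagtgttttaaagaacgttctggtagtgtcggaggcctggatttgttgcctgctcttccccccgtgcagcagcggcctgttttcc
Egr2, chr10:67537619-67537868, plus strand: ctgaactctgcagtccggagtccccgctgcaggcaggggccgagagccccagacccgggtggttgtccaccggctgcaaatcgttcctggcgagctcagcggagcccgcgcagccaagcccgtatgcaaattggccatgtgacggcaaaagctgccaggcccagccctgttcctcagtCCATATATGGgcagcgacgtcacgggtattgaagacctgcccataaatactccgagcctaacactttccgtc
RefSeq windows of 250 bases before to 50 bases after a start were found for 7 of the 9 genes, 14 windows in all. The homeodomain core TAATTA, which reads the same on both strands, was in windows of 2 genes, Otx2 and Emx2, and in 6.12% of the 27025 genes with a window. The nuclear receptor half-site AGGTCA, searched on both strands, was in the windows of 0 of the 7 genes and of 18.1% of all genes. The CArG box, the site of serum response factor, was in windows of Egr2 and of 1.81% of all genes. The Gbx2 and En1 windows held none of the 3 motifs.

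Gbx2 (ENSMUSG00000034486), the hindbrain-side partner of Otx2, lies on chromosome 1 of GRCm38 from 89927956 to 89931179 and was the most abundant of the 9 genes in the placodes. It stood at 5.85 and 7.06 FPKM in placodes 1 and 2 and 0 and 0.0735 FPKM in SMGs 1 and 2, so every placode value was far above every SMG value. The difference of the group means of log2(FPKM + 1) was 2.84, with an SD over 2 samples of 0.17 in the placodes and 0.07 in the SMGs. This level was higher than that of 61.0% and 63.5% of Ensembl genes in the placode samples, with genes listed at 0 included. Among Ensembl genes above 0 the median was 7.17 and 7.16 FPKM in placodes 1 and 2, so Gbx2 lay below it. Gbx2 equalled 14.4% and 16.7% of the FPKM of Pax6, a factor of neural progenitors. Gbx2 shares exonic sequence with the antisense-strand transcript D130058E05Rik, which has no row in the table. The strand setting of the counting is not given in the sources used here, so reads of such partners cannot be told apart.
Otx2 (ENSMUSG00000021848, chromosome 14, 48657677 to 48673819), which Gbx2 opposes at the isthmus, measured 0 and 0.0573 FPKM in placodes 1 and 2 and was listed at 0 in each SMG sample. Its paralogue Otx1 (ENSMUSG00000005917, chromosome 11, 21994764 to 22002897) was listed at 0 in each placode sample and measured 0.02 and 0 FPKM in SMGs 1 and 2. The groups overlapped for both genes. For comparison, 10 of 10 housekeeping genes were above 0 in every sample.

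En1 (ENSMUSG00000058665, chromosome 1, 120602418 to 120607992) and En2 (ENSMUSG00000039095, chromosome 5, 28165694 to 28172166) are the engrailed homeobox repressors of the midbrain and anterior hindbrain. En1 measured 1.74 and 1.48 FPKM in placodes 1 and 2 and 0.0225 and 0.0399 FPKM in SMGs 1 and 2. En2 measured 1.66 and 1.98 FPKM in placodes 1 and 2 and 0 and 0.0296 FPKM in SMGs 1 and 2. Both genes were detected in each placode sample, and neither reached 0.1 FPKM in an SMG sample. In placodes 1 and 2, En1 was above 48.95% and 47.36% of Ensembl genes and En2 above 48.57% and 49.61%, so both lay below the median gene. The log2 differences were 1.34 for En1 (SD 0.10 in the placodes and 0.02 in the SMGs, n = 2 each) and 1.47 for En2 (SD 0.12 and 0.03). Within the placodes the pair could not be ordered, because the ratio of En1 to En2 was 1.05 in sample 1 and 0.749 in sample 2.

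Emx2 (ENSMUSG00000043969, chromosome 19, 59458372 to 59465357), a homeobox gene of the dorsal telencephalon and the urogenital system, had the closest replicates of the 4 detected genes. It stood at 2.89 and 2.83 FPKM in placodes 1 and 2 and 0.0784 and 0.0722 FPKM in SMGs 1 and 2, a log2 difference of 1.84 (SD 0.02 and 0.01, n = 2 each). Both placode values were above the En1 and En2 values and below the Gbx2 values. They were higher than those of 52.82% and 52.43% of Ensembl genes in placodes 1 and 2, with genes listed at 0 included. Emx2 overlaps 1 exon of the antisense gene Emx2os, which has no row in the table. Its paralogue Emx1 (ENSMUSG00000033726, chromosome 6, 85187438 to 85204462), which in mouse is largely restricted to the dorsal telencephalon, was listed at 0 in all 4 samples.
Six3 (ENSMUSG00000038805, chromosome 17, 85613608 to 85629302), a factor of the anterior forebrain and eye field, measured 0.0240 and 0 FPKM in placodes 1 and 2 and 0.0342 and 0 FPKM in SMGs 1 and 2. These values overlapped. Of 9 further forebrain and eye field factors (Rax, Hesx1, Lhx2, Fezf1, Fezf2, Nkx2-1, Vax1, Tbr1 and Barhl2), 0 were detected in either group and 0 had the mean FPKM of 1 needed for testing. Their summed FPKM ran from 1.04 to 1.26 in the placodes and from 0.403 to 0.521 in the SMGs. Lhx2, singled out after its values were seen, had the highest placode values of these 9, at 0.650 and 0.798 FPKM.

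Egr2 (ENSMUSG00000037868, chromosome 10, 67535475 to 67542188), the zinc finger factor of alternate rhombomeres also called Krox20, was the one gene of the 9 with each placode value under each SMG value. It stood at 0.264 and 0.181 FPKM in placodes 1 and 2 and 0.399 and 0.558 FPKM in SMGs 1 and 2, a log2 difference of -0.27 (SD 0.07 and 0.11, n = 2 each). The groups did not overlap, but all 4 values were below 1 FPKM.
Among the 9 genes in the placodes, the order of FPKM was thus Gbx2, Emx2, En2 and En1, Egr2, and then the 4 genes below 0.1 FPKM. Only En1 and En2, and the 4 lowest genes among themselves, had overlapping values. In the SMGs, Egr2 was the highest of the 9 in both samples, and the other 8 genes, all below 0.1 FPKM, were not ordered.

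For genes outside the 9, log2(FPKM + 1) was compared between the groups with limma, which fits every gene and steadies each gene's spread with that of all others. The 13193 features with a mean FPKM of at least 1 over the 4 samples were tested, and 10049 of them, 76.2%, passed at a two-sided Benjamini-Hochberg threshold of 0.05 (35.7% were higher in the placodes and 40.4% lower). The balance of directions depended on the scaling: 4716 features were higher and 5333 lower as deposited, 5074 and 4965 after rescaling to an equal sum, and 5088 and 4997 after median-ratio scaling. Of the 9 genes, 2 (Gbx2 and Emx2) passed this minimum. With 2 samples per group, 0.333 is the smallest p of an exact permutation test.
The 2 groups differed widely in tissue markers. All 8 neural tube markers were higher in the placodes, among them Pax6 (40.7 and 42.2 FPKM, against 0.1 and 0) and Sox3 (72.5 and 69.1 FPKM, against 0.0762 and 0.242). Of 7 SMG epithelium markers, 7 were lower in the placodes. Krt5, Krt14 and Krt15, keratins of the labelled tissue, were listed at 0 FPKM in each placode sample. The paper reported more Krt5 and Krt14 transcript by qPCR with FGF10 than without it, which is a relative measure. It also reported Krt5 protein in duct-like structures on day 10. The reason for this difference was not tested. All 6 SMG mesenchyme markers were lower in the placodes. Neural tube markers summed to between 834 and 864 FPKM in the placodes and to between 89.8 and 97.9 FPKM in the SMGs, in the same direction as Gbx2, Emx2, En1 and En2. SMG epithelium markers summed to between 3.43 and 4.32 FPKM in the placodes and to between 553 and 569 FPKM in the SMGs. The part of tissue composition in the levels of the 9 genes was not tested.

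Genes that act with Otx2, Gbx2 and the engrailed genes at the isthmus were uneven in the placodes: the Pax2, Pax5 and Pax8 factors were abundant, whereas the organizer signals Fgf8 and Wnt1 were at or near 0. Of 10 isthmic organizer genes, 7 were tested, 5 were higher in the placodes, 1 was lower and 1 did not pass the test. The called share was 85.7%, against 76.2% over all tested features. The 5 higher genes passed the minimum mean FPKM through their placode values alone, so their direction was fixed by that minimum. The median log2 difference of the 7 tested genes was 4.45, against -0.05 over all tested features. This median depended on the same minimum, which left out Fgf8, Fgf17 and Wnt1.
Pax8 measured 42.1 and 41.4 FPKM in placodes 1 and 2 and was listed at 0 in each SMG sample. Pax2 measured 24.4 and 24.8 FPKM in placodes 1 and 2 against 0 and 0.0360 FPKM in SMGs 1 and 2, a log2 difference of 4.65 (standard error 0.09, limma adjusted p = 2.82e-07). Pax5 was at 22.7 and 22.8 FPKM in placodes 1 and 2 and 0.00786 and 0.0217 FPKM in SMGs 1 and 2 (log2 difference 4.55, standard error 0.09, limma adjusted p = 3.01e-07). These related paired-box factors act in the gene network of the isthmus, and also mark inhibitory interneurons of the hindbrain and spinal cord. In the placode samples Pax2 was 4.17 and 3.51 times Gbx2, and Pax8 was 7.21 and 5.87 times Gbx2, in FPKM.
Lmx1b, a LIM homeobox factor of the isthmus, dorsal horn and limb, measured 3.37 and 4.27 FPKM in placodes 1 and 2 and 0.0325 and 0.0977 FPKM in SMGs 1 and 2 (limma adjusted p = 2.01e-05). Sp8, singled out after its values were seen, was at 20.2 and 21.6 FPKM in placodes 1 and 2 and listed at 0 in each SMG sample. Fgf18, an FGF ligand with wide expression, was lower in the placodes, with a log2 difference of -0.51 (limma adjusted p = 0.0106), a call lost without either SMG sample (adjusted p = 0.0709 and 0.0551) and without placode sample 1 (adjusted p = 0.0537). Sp5, a target of Wnt signalling, had a log2 difference of 0.06 (limma adjusted p = 0.681).
Of the signals, singled out after their values were seen, Fgf8 was listed at 0 in each placode sample and measured 0.0539 and 0 FPKM in SMGs 1 and 2. Wnt1 measured 0 and 0.140 FPKM in placodes 1 and 2 and 0.0396 and 0 FPKM in SMGs 1 and 2. Fgf17 reached 0.131 and 0.211 FPKM in placodes 1 and 2 and 0.111 and 0 FPKM in SMGs 1 and 2. None of these ligands was tested, and the values of the groups overlapped for Fgf8 and Wnt1.

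**Figure D2:**
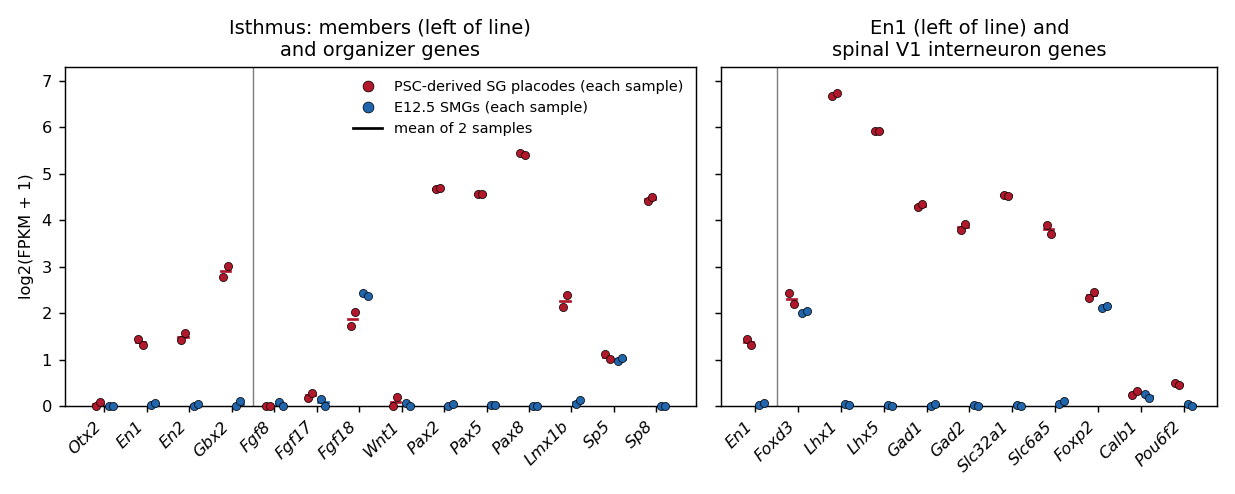
Left, Otx2, En1, En2 and Gbx2 beside 10 genes of the isthmic organizer; right, En1 beside 10 genes of spinal V1 interneurons, all as log2(FPKM + 1), with points for single samples and short lines for means of 2 samples. Pax2, Pax5, Pax8 and Sp8 stand above Gbx2 in each placode sample while Fgf8 and Wnt1 stay near 0, and Lhx1 and Lhx5 reach the highest values.

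Some genes of V1 interneurons, inhibitory cells of the ventral spinal cord in which En1 is also expressed, were high in the same placode samples. Of 10 such genes, 8 were tested, 6 were higher in the placodes, 0 were lower, and 2 did not pass the test. The called share, 75%, was near the 76.2% over all tested features, of which 35.7% were higher in the placodes. The 6 higher genes passed the minimum mean FPKM through their placode values alone. The summed FPKM of the list ran from 236 to 239.7 in the placodes and from 6.65 to 6.82 in the SMGs, so it moved in the same direction as En1. Lhx1, a LIM homeobox factor of many spinal interneurons, measured 99.95 and 104.8 FPKM in placodes 1 and 2 and 0.0262 and 0.0136 FPKM in SMGs 1 and 2, a log2 difference of 6.66 (standard error 0.07, limma adjusted p = 7.80e-08).
Lhx5 was at 59.8 and 59.1 FPKM in placodes 1 and 2 against 0.0168 and 0. Slc32a1, the vesicular transporter of GABA and glycine, was at 22.4 and 22.0 FPKM against 0.0208 and 0, and Slc6a5, the glycine transporter of glycinergic neurons, had a log2 difference of 3.72 (limma adjusted p = 1.13e-06). These transporters and LIM factors are shared by other inhibitory neurons, so they do not identify V1 cells on their own. Foxd3 and Foxp2, transcription factors of V1 cells that other tissues also express, had log2 differences of 0.29 (limma adjusted p = 0.0640) and 0.26 (limma adjusted p = 0.0524), both past the threshold under 3 other scalings. Whether the engrailed transcripts came from V1 neurons, from isthmic cells or from others was not tested.

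The tested genes of the rhombomere list were mostly higher in the placodes, unlike Egr2. The region or cell type that these transcripts came from was not tested. Of 14 genes, 10 were tested and all 10 passed the test, against 76.2% of all tested features. Of these 10, 7 were higher and 3 lower in the placodes, with a median log2 difference of 3.37. Hoxb2, a direct target of Egr2 in the hindbrain, measured 126 and 119 FPKM in placodes 1 and 2 and 1.76 and 1.62 FPKM in SMGs 1 and 2 (log2 difference 5.52, standard error 0.06, limma adjusted p = 9.06e-08). Hoxb3 and Hoxa3, which pattern the hindbrain behind it, had log2 differences of 6.40 and 5.06. Both passed the minimum mean FPKM through their placode values alone. Hoxb1, a rhombomere marker of the same Hox cluster as Hoxb2 that was picked out with its values known, measured 1.86 and 1.38 FPKM in placodes 1 and 2 and was listed at 0 in each SMG sample.
The 3 genes that were lower in the placodes included both Nab genes, whose products bind Egr factors and modulate their activity. Nab2 measured 9.18 and 7.66 FPKM in placodes 1 and 2 and 27.7 and 26.4 FPKM in SMGs 1 and 2 (log2 difference -1.58, standard error 0.09, limma adjusted p = 1.47e-05). Nab1 had a log2 difference of -1.09 (limma adjusted p = 6.02e-05), and Cyp26a1, an enzyme that degrades RA, one of -1.17 (limma adjusted p = 1.88e-04). Cyp26b1, another RA-degrading enzyme of the list, named after its values were seen, went the other way, with 99.6 and 92.7 FPKM in placodes 1 and 2, 10.4 and 9.13 FPKM in SMGs 1 and 2, and a log2 difference of 3.17 (limma adjusted p = 4.99e-07).
Schwann cell genes, in a lineage where Egr2 acts, were tested for 6 of 8 members, of which 4 were lower and 2 higher in the placodes. Over all tested features, 76.2% were called. Sox10, the neural crest and glial factor upstream of Egr2, measured 2.00 and 1.58 FPKM in placodes 1 and 2 and 19.1 and 16.7 FPKM in SMGs 1 and 2 (log2 difference -2.76, standard error 0.11, limma adjusted p = 3.63e-06). Erbb3, the neuregulin receptor of Schwann precursors, had a log2 difference of -2.96. Pou3f1, which is also expressed in neural progenitors and keratinocytes, was higher in the placodes by 2.65 on the log2 scale, and Mbp by 0.67. The list summed to between 27.3 and 28.1 FPKM in the placodes and to between 81.5 and 89.2 FPKM in the SMGs, in the same direction as Egr2, and its part in the Egr2 values was not tested.

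The paralogues of the 9 genes behaved differently from family to family. Of 9 paralogues, 5 were tested and all 5 passed the test, 1 higher and 4 lower in the placodes, against 76.2% passing over all tested features. Gbx1, the only other Gbx gene, followed Gbx2, with 5.62 and 5.11 FPKM in placodes 1 and 2 and 0 and 0.0452 FPKM in SMGs 1 and 2 (log2 difference 2.64, standard error 0.11, limma adjusted p = 4.05e-06). Its placode values lay close below those of Gbx2, and it passed the minimum mean FPKM through them alone.
Egr1, an immediate early gene of the Egr2 family, measured 2.08 and 1.46 FPKM in placodes 1 and 2 and 24.9 and 29.4 FPKM in SMGs 1 and 2, a log2 difference of -3.35 (standard error 0.14, limma adjusted p = 3.47e-06). Egr3, singled out after its values were seen, was not tested and was at 0.199 and 0.110 FPKM against 0.239 and 0.458, so that Egr1, Egr2 and Egr3 all had lower placode than SMG values. Egr4 stayed at or below 0.1 FPKM in the 4 samples.
Relatives of Six3 were mostly higher in the SMGs. Six2, a factor of head and kidney mesenchyme, measured 0.786 and 0.996 FPKM in placodes 1 and 2 and 26.8 and 23.8 FPKM in SMGs 1 and 2 (log2 difference -3.80, standard error 0.10, limma adjusted p = 7.86e-07). Six5 had a log2 difference of -1.70 and Six4 of -0.93. Six6, the closest paralogue of Six3 and singled out after its values were seen, was at 0.247 and 0.246 FPKM in placodes 1 and 2 and 0 and 0.0392 FPKM in SMGs 1 and 2. Crx, the photoreceptor gene of the Otx family, was listed at 0 in all 4 samples, as was Emx1.

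**Figure D3:**
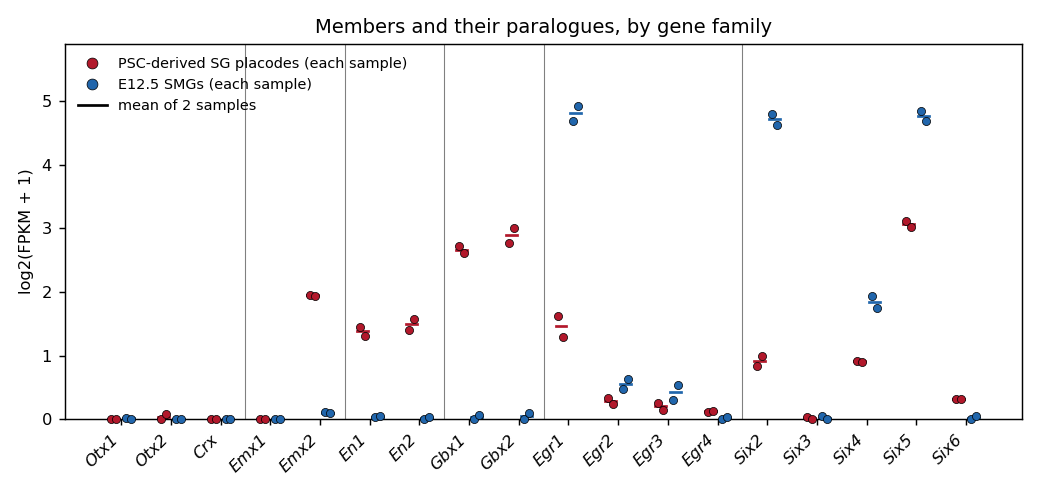
The 9 factors and their paralogues grouped by gene family (separated by vertical lines), as log2(FPKM + 1), with points for single samples and short lines for means of 2 samples. Both Gbx genes and both engrailed genes are higher in the placodes, and Egr1, Six2, Six4 and Six5 are higher in the SMGs.

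Genes next to the 9 on the chromosome were compared with them, a choice made after the values had been seen. The nearest protein-coding gene on each side gave 18 genes, of which 15 were tested. The placodes had higher levels of 6 and lower levels of 5, and 4 did not pass the test. Counted in either direction, 11 of the 15 were called, near the 76.2% called over all features. Cnpy1, 28.65 kb from En2, has a zebrafish counterpart that regulates FGF signalling at the midbrain-hindbrain border. Cnpy1 measured 1.21 and 1.79 FPKM in placodes 1 and 2, close to the level of En2, and was listed at 0 in each SMG sample. Insig1, on the other side of En2, is a regulator of sterol synthesis and had a log2 difference of 1.18 (limma adjusted p = 1.00e-05). Agap1, 30.3 kb from Gbx2, had a log2 difference of 1.88 (limma adjusted p = 3.24e-06). Emx2 was higher in the placodes, whereas its neighbours on both sides were called lower there. Six2 lies 55.0 kb from Six3, and the pair was far apart in the SMGs, where Six2 was above 20 FPKM in both samples and Six3 below 0.1.

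**Figure D4:**
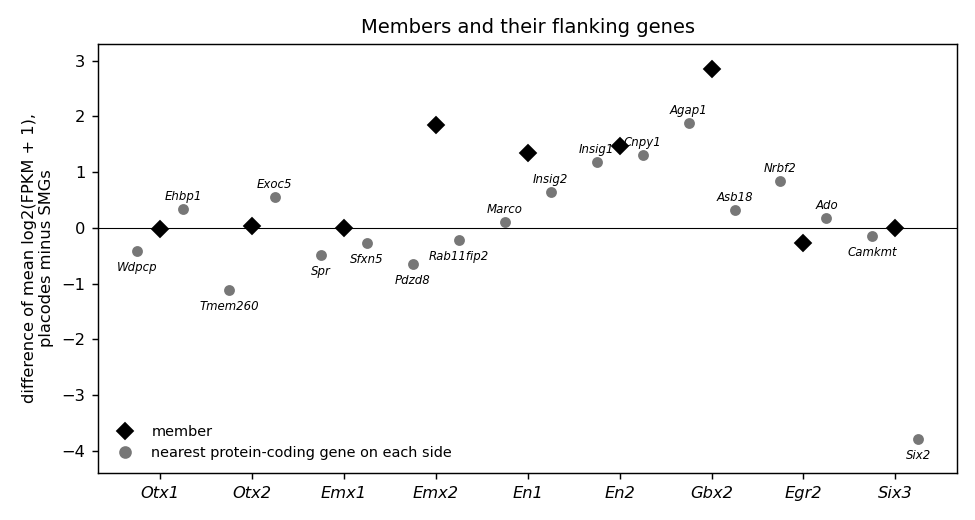
Difference of mean log2(FPKM + 1), placodes minus SMGs, for each of the 9 factors (black diamonds) and for the nearest protein-coding gene on each side (grey circles; lower coordinate left, higher coordinate right). Cnpy1 and Insig1 lie near En2, and Six2, at -3.80, lies far below Six3.

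The genes whose values over the 4 samples were nearest to each detected factor, by Euclidean distance of log2(FPKM + 1), were, like them, above 1 FPKM in both placodes and near 0 in both SMGs. Nearest to Gbx2 were Slc30a3, a vesicular zinc transporter, at a distance of 0.0874, Glra1, a glycine receptor subunit, at 0.137, and Ccdc184 at 0.234. Nearest to En2 were 3 homeobox genes of the neural tube or eye: Vax2 at 0.0602, Nkx6-2 at 0.0956 and Lhx3 at 0.102. Arid3c (0.0875), the potassium channel gene Kcnk9 (0.0961) and Gm8113 (0.0975) were nearest to En1, and Tmem132b (0.0888), Sec14l5 (0.108) and the glycine receptor gene Glra2 (0.153) to Emx2. With 4 samples in 2 groups, this likeness reflects level and group difference only.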

How the data were processed

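Sequenced were 2 samples of PSC-derived SG placodes and 2 of E12.5 SMGs, grouped by the sample titles. The authors mapped paired-end reads with HISAT2 and deposited FPKM for each gene and sample. The submitters' processing notes name GRCm38 and GRCh38. The program that computed FPKM, the annotation and the strand setting are not given in the sources used here. The values showed no clean steps of whole reads, so the depth is unknown and no counting interval or detection floor is given. FPKM summed to between 361963 and 384773 per sample, and 12636 to 12807 features were at 1 or more.

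Of 22036 Ensembl genes, 22022 were found in GENCODE M21 (GRCm38), the source of coordinates. Promoters came from RefSeq tables of GRCm38.p6. log2(FPKM + 1) of features with a mean FPKM of at least 1 was compared by limma 3.58.1 under R 4.3.3, with lmFit and a trended eBayes and group as the only term, two-sided, with Benjamini-Hochberg adjustment over all 13193 tested features. Fold differences on this scale understate changes of low genes. The procedure was tested on simulated data. Tables and figures used Python 3.11.15.

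The 9 genes and all lists were chosen with earlier results of these data known. Some genes of the lists are not reported here, and list counts, medians and sums are over the remaining genes. Named beside the 9 were, per list, up to 3 genes with the highest and 3 with the lowest log2 difference among those with a mean FPKM of at least 1, the 3 nearest genes by pattern, overlapping genes, and genes said to be singled out. Alternatives were pseudocounts of 0.1 and 0.01, an equal sum per sample, median-ratio scaling, quantile normalization, no minimum or a minimum mean FPKM of 5, an untrended eBayes, the replicate number as a block, detection at 0.1 or 5 FPKM, each sample left out in turn and, chosen after seeing the data, leaving out 2735 assembled loci.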

Additional observations from a re-analysis of the deposited data

How the results depend on the processing

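The number of features called stayed between 7460 and 11894 under the alternatives, was 10043 with the replicate number as a block, 9762 without assembled loci, and 8622 to 9142 with 1 sample left out. Replicate numbers did not pair the samples by their labels, the differences between same-numbered samples were uncorrelated between the groups (r = -0.03 across tested features), and the block changed no call of a named gene. Detection of the 9 genes in the placodes gave 1 (Gbx2) at 5 FPKM and 5 at 0.1 FPKM, and detection in the SMGs gave 1 (Egr2) at 0.1 FPKM. The pseudocount set the size of the differences most: with 0.1 and 0.01 the log2 difference was 5.63 and 7.80 for Gbx2 and 3.70 and 5.32 for En1. The forebrain and eye field list gave 1 called gene with no minimum of mean FPKM, and the paralogues gave 3 with a minimum of 5. Spinal V1 genes called were 8 after an equal sum, median-ratio or quantile scaling and without trend, through Foxd3 and Foxp2. Of 51 other named genes with a test, 47 kept their direction and call in every alternative that tested them. The exceptions were Fgf18, Foxd3, Foxp2 and Sp5 (log2 difference from -0.000567 to 0.11 with 1 sample left out), and the cause was not tested. Values below 0.1 FPKM cannot be told from 0 at an unknown depth.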
